A study of Mus musculus with 19 samples.

Results

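The 50 genes described here encode the machinery of DNA replication and cell division, and were chosen by gene symbol. Each symbol matched 1 gene, so that all 50 were found among the 55416 genes of the count table, and all 50 passed the filter on low counts that left 19234 genes for testing. RNA was taken from the right hippocampus of C57BL6 mice 4 days after kainate or saline. Kainate, an agonist of glutamate receptors, was given as repeated low doses to bring on status epilepticus, a prolonged seizure. EZH2nHom mice, EZH2(-/-);Syn1Cre(+/-), were designed to lose EZH2, a histone methyltransferase, in neurons, since Cre was driven by the neuronal Synapsin1 promoter on floxed EZH2 alleles. WT mice, EZH2(+/+);Syn1Cre(+/-), carried the same Cre without the deletion. The 19 libraries were 4 of EZH2nHom kainate, 5 of EZH2nHom saline, 5 of WT kainate and 5 of WT saline. Ages were not given in the labels used here. Nothing in the labels says that the libraries of a group came from separate animals, so that p-values measure the spread between these samples.

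Total reads ran from 24496685 to 43948317 per library. Levels are given as CPM, the count scaled to the library total after TMM adjustment, and changes as log2 fold changes ± SE from edgeR's quasi-likelihood test, with p-values adjusted by Benjamini-Hochberg over the 19234 genes. The threshold for a call was an adjusted p of 0.05. Markers of hippocampal neurons, such as Snap25, Prox1 and Wfs1, were read in every library, with a summed level of 2240.1 to 4329 CPM over 9 genes. Ezh2 (ENSMUSG00000029687), counted over the whole gene and all cells, stood at 14.5 to 19.6 CPM in EZH2nHom kainate, 11.8 to 15.5 CPM in EZH2nHom saline, 10.7 to 20.3 CPM in WT kainate and 9.61 to 12.9 CPM in WT saline libraries. It was not lower in the EZH2nHom libraries, so that this gene-level count does not check a deletion limited to neurons, and genotypes are given as labelled. Xist was read at 10 CPM or more in 1, 0, 2 and 2 libraries of these 4 groups. EZH2nHom kainate replicate 2 stood apart from the other 18 libraries on the second principal component of all genes, and results that rest on it are given with and without it.

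A dividing cell copies its DNA in S phase and separates the copies in mitosis. Origins of replication are licensed by loading the MCM helicase with the help of Cdc6 and Cdt1, and are fired as Cdc45 and the GINS complex join it. Mitosis is driven by Cdk1 with cyclin B, by Aurora and Polo-like kinases, and by motors and scaffolds that build the spindle, and it ends when the anaphase-promoting complex with Cdc20 marks cyclin B for destruction. Genes of the first phase are classically controlled by E2F factors, and genes of the last by the MuvB core with B-Myb and FoxM1, which acts through the cell cycle genes homology region (CHR), often beside CCAAT boxes bound by NF-Y. In the adult hippocampus of rodents, cells in cycle are mostly neural progenitors, oligodendrocyte precursors and, after injury, microglia and some astrocytes.

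Promoter sequences are shown because the median changes described below were smaller for the replication genes than for the mitotic roles. The median of the supply and repair genes lay between them, and single genes of the roles overlapped in size. The windows run from 250 bases before to 50 bases after the annotated start, from RefSeq on GRCm38.p6, and are printed 5′ to 3′ on the strand of the gene. Capitals mark the letters searched on both strands: CCAAT for the NF-Y box, TTTGAA or TTCGAA for the CHR, and TTTCCCGC, TTTGGCGC, TTTCGCGC or TTTGCCGC for E2F. Mki67 (chr7:135716330-135716629, minus strand) and Ccnb2 (chr9:70421505-70421804, minus strand) stand for the mitotic genes, and Mcm5 (chr8:75109259-75109558, plus strand) and Mcm3 (chr1:20820263-20820562, minus strand) for the replication genes.
Mki67: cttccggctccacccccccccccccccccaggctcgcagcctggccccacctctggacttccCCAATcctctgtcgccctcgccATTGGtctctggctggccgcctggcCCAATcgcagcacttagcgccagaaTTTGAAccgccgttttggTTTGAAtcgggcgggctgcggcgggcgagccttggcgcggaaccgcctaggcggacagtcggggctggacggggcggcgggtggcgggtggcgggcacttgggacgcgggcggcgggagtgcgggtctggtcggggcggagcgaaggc
Ccnb2: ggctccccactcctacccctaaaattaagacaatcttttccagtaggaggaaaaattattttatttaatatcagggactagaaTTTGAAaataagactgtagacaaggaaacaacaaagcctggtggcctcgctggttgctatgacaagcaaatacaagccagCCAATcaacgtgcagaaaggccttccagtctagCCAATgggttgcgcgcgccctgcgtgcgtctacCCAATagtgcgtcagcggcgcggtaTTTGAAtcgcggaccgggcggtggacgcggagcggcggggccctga
Mcm5: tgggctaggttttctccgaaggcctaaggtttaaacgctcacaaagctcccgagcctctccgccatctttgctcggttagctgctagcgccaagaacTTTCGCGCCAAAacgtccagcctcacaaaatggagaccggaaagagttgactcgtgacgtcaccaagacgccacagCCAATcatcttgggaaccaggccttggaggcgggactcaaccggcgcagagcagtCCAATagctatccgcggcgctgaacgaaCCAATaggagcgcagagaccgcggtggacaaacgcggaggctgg
Mcm3: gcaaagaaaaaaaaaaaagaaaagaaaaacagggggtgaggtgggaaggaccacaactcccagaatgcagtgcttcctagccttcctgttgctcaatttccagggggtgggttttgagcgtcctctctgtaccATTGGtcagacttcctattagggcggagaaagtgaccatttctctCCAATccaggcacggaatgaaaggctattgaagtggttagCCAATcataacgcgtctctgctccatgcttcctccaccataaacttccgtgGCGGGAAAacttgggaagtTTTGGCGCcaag

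The Mki67 window held 3 CCAAT boxes and 2 CHR matches, and the Ccnb2 window likewise 3 and 2, with no E2F match in either. The Mcm5 window held 3 CCAAT boxes and 2 E2F matches on opposite strands that overlap each other, and the Mcm3 window 3 CCAAT boxes and 2 separate E2F matches, with no CHR match in either. Of the 50 genes 43 had an entry in this table, and Mcm4, Gins2, Ccna2, Pbk, Aurkb, Kif20a and Tpx2 had none. A CHR match was found in 23 of 29 mitotic genes (79.3%), in 3 of 14 genes of replication, supply and repair (21.4%) and in 21.7% of all 27025 genes with an entry. Those 3 were Mcm2, Mcm7 and Cdc45. The supply and repair genes Rrm2, Tyms, Chaf1b, Uhrf1 and Brca1 had no CHR match, and their median change was above that of the replication genes. Whether a match goes with the size of a change was not tested. An E2F match was found in 2 of the 29 mitotic genes (6.9%), Cdk1 and Kif15, in 7 of the 14 others (50%) and in 2.6% of all genes. CCAAT was present in 75.9% of the mitotic genes, 71.4% of the others and 41.1% of all genes. A match of letters describes the window and is not a measured site, and the promoters were not matched for base composition.

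After kainate, 48 of the 50 genes were higher than after saline in EZH2nHom hippocampus and 47 were higher in WT, and 0 were lower in either genotype. Among all genes tested, 14.3% passed as higher in EZH2nHom and 9.47% in WT, and 11.8% and 2.57% as lower. The median log2 change over the 50 genes was 2.56 in EZH2nHom and 2.47 in WT, against -0.02 over all genes in both. Changes of 4-fold or more were fitted for 35 genes in EZH2nHom and 30 in WT, and of 8-fold or more for 16 and 10. The genes that did not pass were Tyms and Anln in EZH2nHom, and Mcm6, Tyms and Anln in WT. Without EZH2nHom kainate replicate 2 the first count was 49, and without WT kainate replicates 3 and 4, the libraries with the highest levels, the second was 37, with a median log2 change of 1.63. Among all genes, 2994 of 19514 and 610 of 19470 were higher in these fits. Blocking on the replicate number of the titles, which for EZH2nHom kainate differs from that of the sample descriptions, gave counts of 47 and 46. Among all genes, 2399 of 19234 were higher in EZH2nHom and 1685 in WT with this block. Cdc6 was lost in EZH2nHom and Cdc45 in WT. Cdc6 was also lost without EZH2nHom kainate replicate 4. By DESeq2 Tyms passed in EZH2nHom.

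**Figure D1:**
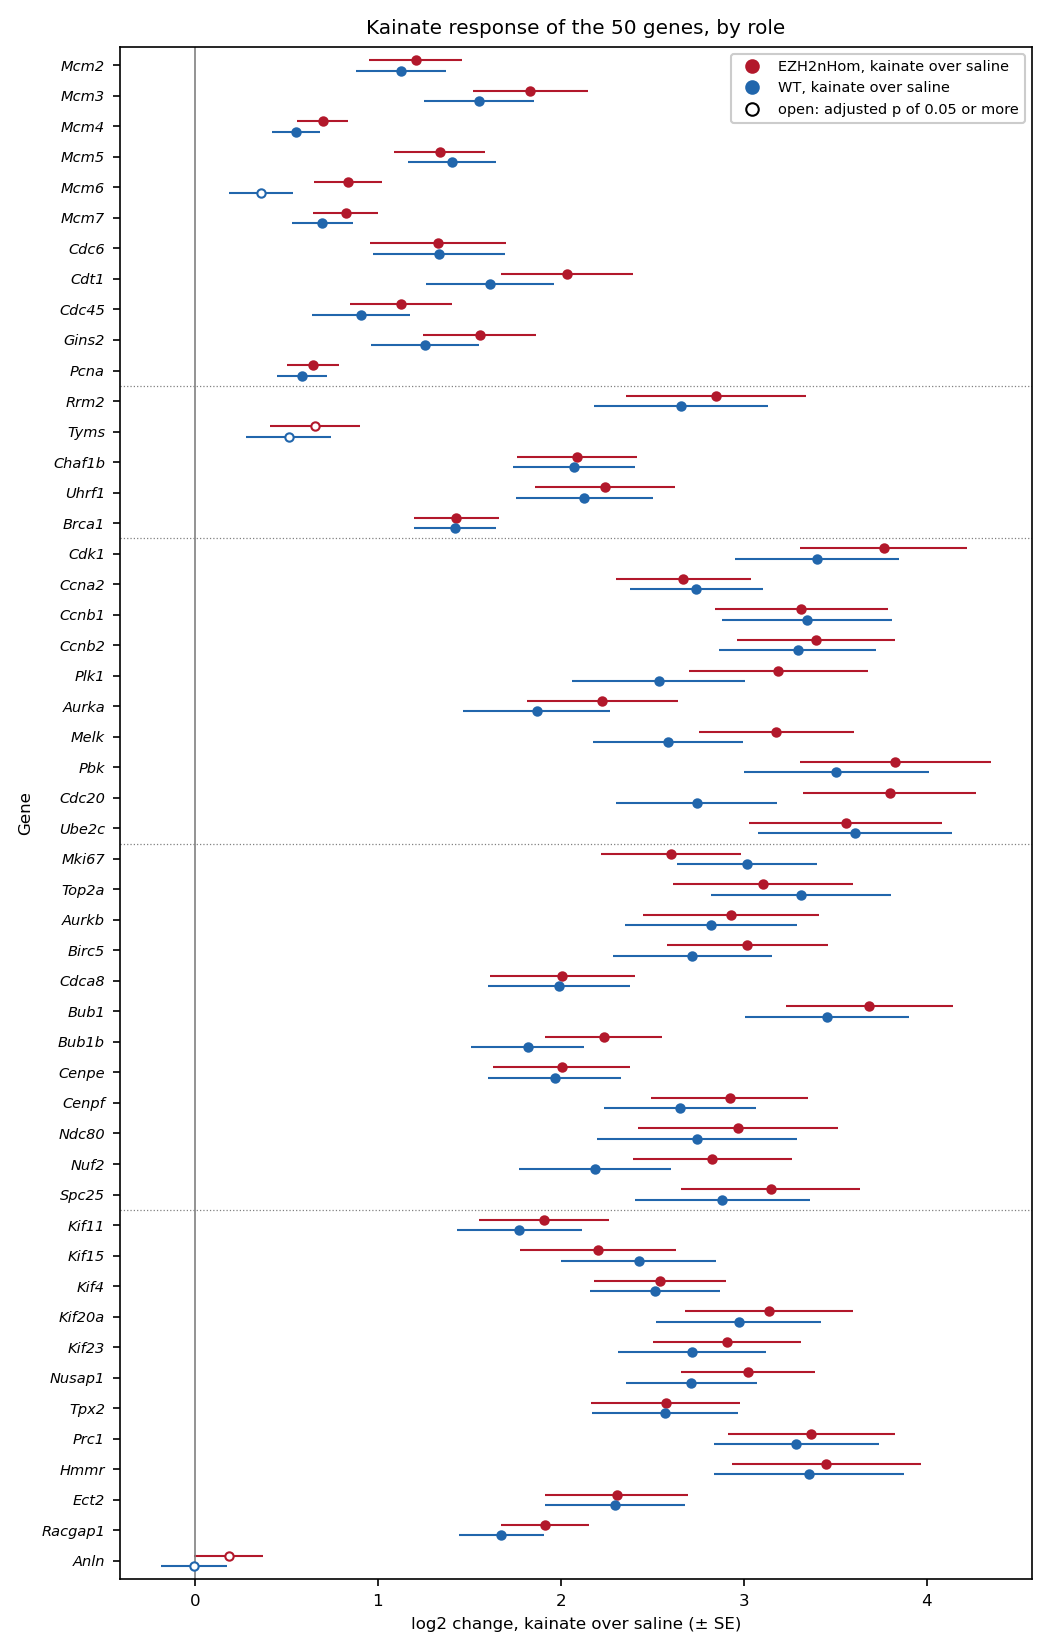
Log2 change of kainate over saline (± SE) for the 50 genes, with EZH2nHom in red above WT in blue and dotted lines between the 5 roles. The replication genes at the top lie between 0.36 and 2.03, most mitotic genes further down lie above 1.8, and Anln at the bottom lies at 0.19 in EZH2nHom and -0.00 in WT.

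Of the 5 roles, the smallest median change was that of the 11 genes of origin licensing and the replication fork. All 11 rose in EZH2nHom, with a median log2 change of 1.21, and 10 rose in WT, with a median of 1.13. Mcm5, a subunit of the replicative helicase, stood at 12.9, 8.99, 11.5 and 20.5 CPM in the EZH2nHom kainate libraries, against 5.47, 5.46, 4.62, 5.51 and 5.62 CPM in the EZH2nHom saline libraries. The WT kainate libraries had 6.88, 8.39, 13.5, 19.3 and 9.64 CPM of Mcm5, against 4.51, 4.1, 4.78, 4.42 and 3.94 CPM in WT saline libraries. No kainate library overlapped the saline libraries of its genotype, and the log2 changes were 1.34 ± 0.25 in EZH2nHom (adjusted p = 0.000608) and 1.41 ± 0.24 in WT (adjusted p = 0.000638).

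Mcm3, another subunit of the helicase, stood at 12.4, 8.62, 10.1 and 20.9 CPM in EZH2nHom kainate libraries, against 3.93, 3.56, 3.53, 3.98 and 3.24 CPM in EZH2nHom saline libraries. For WT these levels were 5.5, 7.97, 15.4, 22.2 and 7.72 CPM after kainate, against 4.06, 4.07, 4.13, 3.88 and 3.87 CPM after saline. Both sets were separate, with log2 changes of 1.83 ± 0.32 (adjusted p = 0.000336) in EZH2nHom and 1.55 ± 0.30 (adjusted p = 0.002) in WT. Pcna, the sliding clamp of the replicative polymerases, had one of the smallest changes that passed. Its levels were 53.3, 53.5, 50.6 and 72.5 CPM in EZH2nHom kainate, against 43.2, 32.7, 37.4, 34.8 and 35.3 CPM in EZH2nHom saline libraries. The WT kainate values of Pcna were 38, 44.5, 60.6, 67.6 and 44.2 CPM, against 33.3, 34.1, 35, 34.9 and 32.4 CPM after saline in WT. High levels after saline and log2 changes of only 0.65 ± 0.14 in EZH2nHom (adjusted p = 0.00244) and 0.59 ± 0.14 in WT (adjusted p = 0.00709) set Pcna apart from Mcm5 in the plot of levels by library. Of the 32-base words of the Pcna transcripts, 23.0% recur in other gene models, mainly the pseudogene Pcna-ps2, so that its count may be shared.

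Mcm6, a further helicase subunit, stood at 34.2, 23.9, 25 and 50.2 CPM in EZH2nHom kainate libraries, against 20.1, 19.4, 16.2, 20.5 and 17.1 CPM in EZH2nHom saline libraries. WT kainate libraries had 18.6, 20.1, 28.8, 30.6 and 20.8 CPM of Mcm6, against 17.3, 19.5, 19.8, 16.6 and 19.3 CPM in WT saline libraries. The groups were separate in EZH2nHom, with a log2 change of 0.84 ± 0.18 (adjusted p = 0.00255), and overlapped in WT, where the change of 0.36 ± 0.18 did not pass (adjusted p = 0.21). The difference between these responses was 0.48 ± 0.26 and did not pass either (adjusted p = 0.608). Among the rest of this role, Cdt1, the licensing factor, changed most in EZH2nHom at 2.03 ± 0.36, with 1.61 ± 0.35 in WT. Mcm4 and Mcm7, also of the helicase, rose by 0.70 ± 0.14 and 0.82 ± 0.18 in EZH2nHom and by 0.56 ± 0.13 and 0.70 ± 0.17 in WT, near Pcna. Mcm2 of the helicase, the loader Cdc6 and the firing factors Cdc45 and Gins2 rose by 1.21 ± 0.26, 1.33 ± 0.37, 1.12 ± 0.28 and 1.56 ± 0.31 in EZH2nHom and by 1.13 ± 0.24, 1.33 ± 0.36, 0.91 ± 0.27 and 1.26 ± 0.30 in WT. Gins2 shares 66.2% of its 32-base words with the overlapping gene Gse1, and Mcm7 shares 32.7% with other models, so that their values are uncertain.

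Of the 5 genes of nucleotide supply, chromatin assembly and repair, 4 rose in each genotype, with median log2 changes of 2.09 in EZH2nHom and 2.07 in WT. Brca1, which acts in repair by homologous recombination, stood at 8.81, 5.87, 8.18 and 12.6 CPM in EZH2nHom kainate, against 3.93, 3.35, 3.58, 2.68 and 2.91 CPM in EZH2nHom saline libraries. WT levels of Brca1 were 4.9, 5.54, 8.53, 11.3 and 6.98 CPM after kainate, against 2.55, 2.91, 3.34, 2.24 and 2.87 CPM after saline. Every kainate library lay above the saline libraries of its genotype, and the log2 changes of 1.43 ± 0.23 in EZH2nHom (adjusted p = 0.000209) and 1.42 ± 0.23 in WT (adjusted p = 0.000389) were close to each other. Chaf1b, a subunit of the chromatin assembly factor that places histones on new DNA, had 2.06, 3.27, 2.45 and 3.63 CPM in EZH2nHom kainate, against 0.623, 0.58, 0.681, 0.7 and 0.743 CPM in EZH2nHom saline libraries. Chaf1b levels in WT were 0.832, 0.858, 2.07, 3.33 and 1.52 CPM after kainate, against 0.354, 0.459, 0.482, 0.377 and 0.346 CPM after saline. It rose by 2.09 ± 0.33 in EZH2nHom (adjusted p = 0.000151) and 2.07 ± 0.33 in WT (adjusted p = 0.00041), without overlap. Rrm2, the small subunit of ribonucleotide reductase, rose most in this role, by 2.85 ± 0.49 in EZH2nHom and 2.66 ± 0.47 in WT. Uhrf1, which reads hemimethylated DNA behind the fork, rose by 2.24 ± 0.38 in EZH2nHom and 2.13 ± 0.37 in WT.

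Tyms, thymidylate synthase, was the supply gene that did not pass in the main fit. Its levels were 4.67, 2.83, 3.33 and 7.15 CPM in EZH2nHom kainate, against 3.06, 2.73, 3.11, 2.37 and 2.97 CPM in EZH2nHom saline libraries. The levels of Tyms in WT were 2.88, 3.4, 4.83, 5.53 and 3.22 CPM after kainate, against 2.51, 2.17, 3.2, 2.72 and 3.29 CPM after saline. The groups overlapped in each genotype, and the log2 changes of 0.66 ± 0.24 in EZH2nHom (adjusted p = 0.0544) and 0.51 ± 0.23 in WT (adjusted p = 0.178) did not pass. In EZH2nHom the result depended on the fit. Tyms passed there by DESeq2, with its size factors, with the stricter filter and with the Xist or structural RNA covariate. It also passed without EZH2nHom kainate replicate 2 or 3 and without WT kainate replicate 1, 2, 3 or 4. Leaving out any 1 of the WT saline libraries let it pass as well. In WT it passed in none of the fits.

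**Figure D2:**
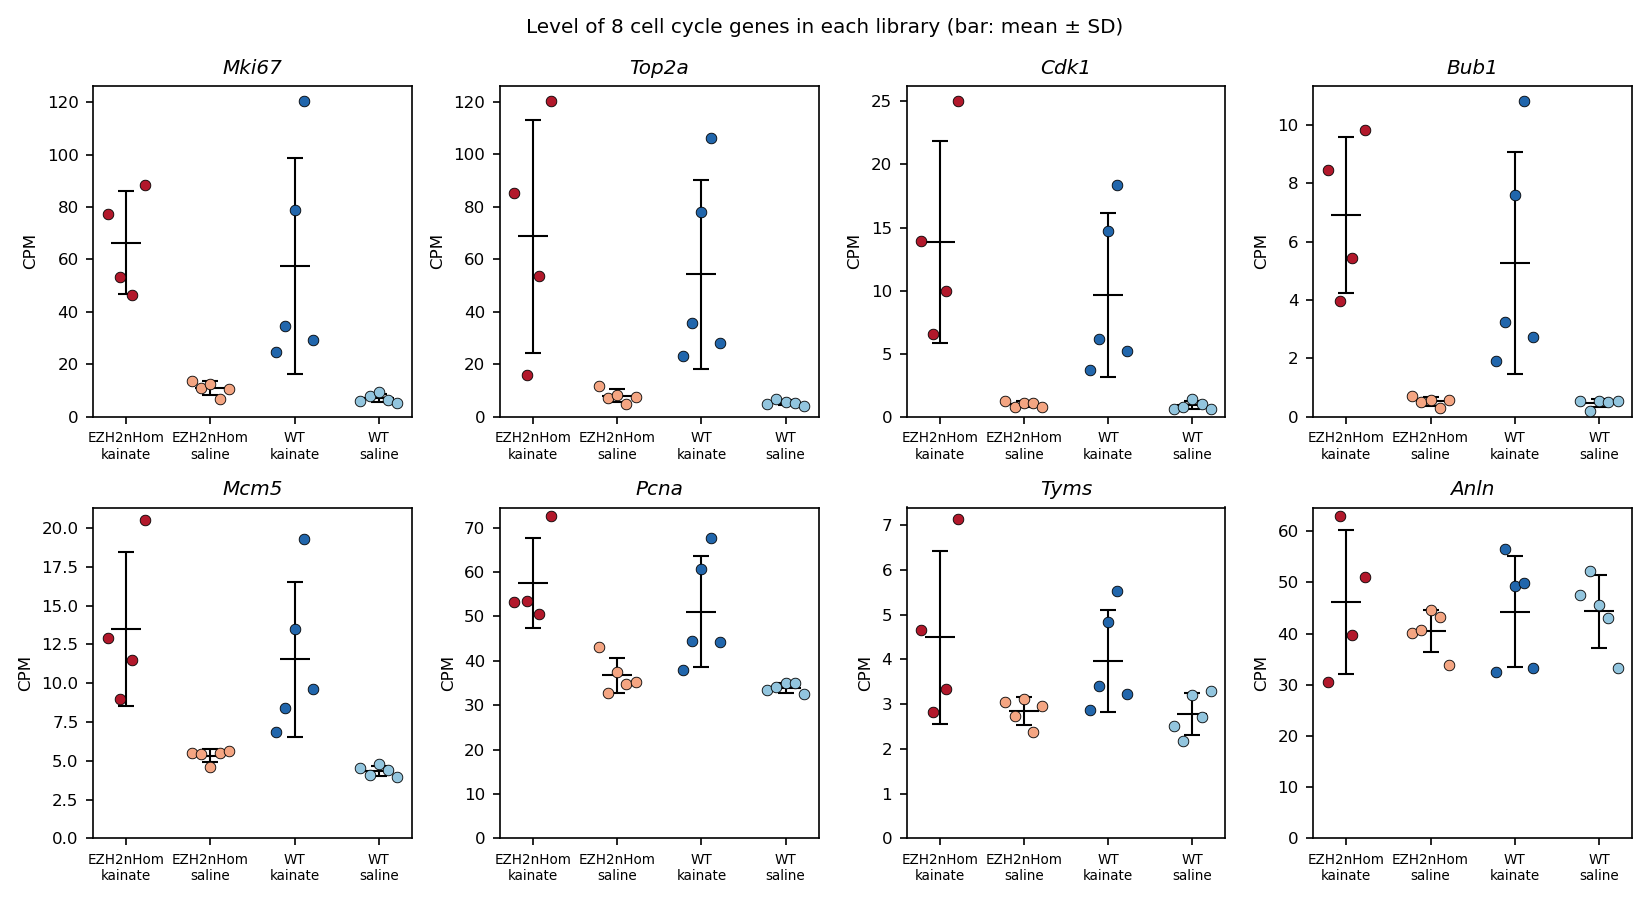
CPM of 8 genes in each library, as 1 point per library with bars for mean ± SD, in the order EZH2nHom kainate, EZH2nHom saline, WT kainate and WT saline. Mki67, Cdk1, Bub1 and Mcm5 have no overlap between kainate and saline within a genotype, Pcna starts from a high level, and Tyms and Anln overlap.

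All 10 cyclins, kinases and ubiquitin ligase parts of mitosis rose in each genotype, and their median log2 changes, 3.35 in EZH2nHom and 3.02 in WT, were the largest of the 5 roles. Cdk1, the kinase that drives entry into mitosis, stood at 13.9, 6.57, 9.95 and 25 CPM in EZH2nHom kainate, against 1.25, 0.786, 1.1, 1.13 and 0.803 CPM in EZH2nHom saline libraries. Its WT levels were 3.68, 6.14, 14.7, 18.4 and 5.25 CPM after kainate, against 0.644, 0.795, 1.41, 1.02 and 0.657 CPM after saline. The lowest kainate library lay well above the highest saline library in each genotype, with log2 changes of 3.76 ± 0.46 (adjusted p = 2e-05) in EZH2nHom and 3.40 ± 0.45 (adjusted p = 0.000121) in WT. Ccnb2, a B-type cyclin that activates Cdk1, had 6.81, 3.67, 4.2 and 11 CPM in EZH2nHom kainate, against 0.406, 0.745, 0.563, 0.578 and 0.773 CPM in EZH2nHom saline libraries. WT libraries had 1.79, 2.99, 6.86, 8.51 and 2.45 CPM of Ccnb2 after kainate, against 0.516, 0.428, 0.344, 0.593 and 0.38 CPM after saline. It rose by 3.39 ± 0.43 in EZH2nHom (adjusted p = 2.63e-05) and 3.29 ± 0.43 in WT (adjusted p = 0.000107). Ccnb1, its sister cyclin, rose by 3.31 ± 0.47 in EZH2nHom and 3.34 ± 0.47 in WT, with 27.5% of its 32-base words shared, mainly with the pseudogene Ccnb1-ps.

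Cdc20 and Plk1 had the largest differences between the 2 responses. Cdc20, the activator of the anaphase-promoting complex, stood at 6.48, 2.68, 5.91 and 14.2 CPM in EZH2nHom kainate, against 0.542, 0.29, 0.8, 0.304 and 0.654 CPM in EZH2nHom saline libraries. For WT the Cdc20 levels were 2.34, 4.43, 7.95, 10.4 and 3.75 CPM after kainate, against 0.644, 0.826, 1.03, 1.1 and 0.657 CPM after saline. The rises of 3.80 ± 0.47 (adjusted p = 2.44e-05) in EZH2nHom and 2.74 ± 0.44 (adjusted p = 0.000416) in WT differed by 1.05 ± 0.63, which did not pass (adjusted p = 0.64). Plk1, the Polo-like kinase of mitotic entry and spindle assembly, had 4.04, 1.21, 2.63 and 7.44 CPM in EZH2nHom kainate, against 0.244, 0.414, 0.444, 0.517 and 0.476 CPM in EZH2nHom saline libraries. WT levels of Plk1 were 1.09, 1.8, 3.63, 5.18 and 1.2 CPM after kainate, against 0.451, 0.398, 0.447, 0.512 and 0.38 CPM after saline. It rose by 3.19 ± 0.49 (adjusted p = 0.000123) in EZH2nHom and 2.53 ± 0.47 (adjusted p = 0.00138) in WT, and the difference of 0.65 ± 0.67 did not pass (adjusted p = 0.786). Cdc20 and Plk1 share 25.5% and 18.1% of their 32-base words with other gene models, mainly pseudogene-like copies. Among the rest, Ube2c, the ubiquitin-conjugating enzyme of the same complex, rose by 3.56 ± 0.53 in EZH2nHom and 3.61 ± 0.53 in WT, Pbk, a mitotic kinase, by 3.83 ± 0.52 in EZH2nHom and 3.51 ± 0.51 in WT, and Aurka, the centrosomal Aurora kinase, by 2.23 ± 0.41 in EZH2nHom and 1.87 ± 0.40 in WT. Ccna2, which encodes cyclin A, and the kinase Melk rose by 2.67 ± 0.37 and 3.18 ± 0.42 in EZH2nHom and by 2.74 ± 0.36 and 2.58 ± 0.41 in WT.

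All 12 genes of chromosomes, centromere and checkpoint rose in each genotype, with median log2 changes of 2.93 in EZH2nHom and 2.73 in WT. Mki67, which coats mitotic chromosomes and encodes the Ki-67 antigen used to mark cells in cycle, stood at 77.5, 53.5, 46.4 and 88.4 CPM in EZH2nHom kainate, against 13.5, 10.9, 12.7, 6.91 and 10.7 CPM in EZH2nHom saline libraries. In the WT libraries Mki67 was at 24.9, 34.5, 78.7, 120.4 and 29.2 CPM after kainate, against 6.22, 7.86, 9.5, 6.52 and 5.36 CPM after saline. Every kainate value lay above every saline value, and the log2 changes were 2.60 ± 0.38 (adjusted p = 0.000107) in EZH2nHom and 3.02 ± 0.38 (adjusted p = 0.000107) in WT.

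Top2a, the topoisomerase that untangles sister chromatids, had 85.3, 16, 53.7 and 120.3 CPM in EZH2nHom kainate, against 11.8, 7.33, 8.27, 4.81 and 7.7 CPM in EZH2nHom saline libraries. Top2a in WT was at 23.3, 35.6, 78, 106.1 and 28.3 CPM after kainate, against 5.03, 6.94, 5.71, 5.36 and 4.18 CPM after saline. It rose by 3.10 ± 0.49 in EZH2nHom (adjusted p = 0.00021) and 3.31 ± 0.49 in WT (adjusted p = 0.000307), although EZH2nHom kainate replicate 2 lay close to its saline libraries. Bub1, a kinase of the spindle checkpoint, had 8.44, 3.96, 5.45 and 9.81 CPM in EZH2nHom kainate, against 0.704, 0.497, 0.593, 0.304 and 0.565 CPM in EZH2nHom saline libraries. WT libraries had 1.92, 3.24, 7.58, 10.8 and 2.72 CPM of Bub1 after kainate, against 0.548, 0.214, 0.551, 0.512 and 0.553 CPM after saline. Its changes of 3.69 ± 0.46 in EZH2nHom (adjusted p = 2.21e-05) and 3.45 ± 0.45 in WT (adjusted p = 0.000107) were the largest of this role in each genotype. Birc5 (survivin), Aurkb and Cdca8, of the chromosomal passenger complex, rose by 3.02 ± 0.44, 2.93 ± 0.48 and 2.01 ± 0.40 in EZH2nHom and by 2.72 ± 0.43, 2.82 ± 0.47 and 1.99 ± 0.39 in WT. Ndc80, Nuf2 and Spc25, of the kinetochore complex that grips microtubules, rose by 2.97 ± 0.55, 2.83 ± 0.43 and 3.15 ± 0.49 in EZH2nHom and by 2.75 ± 0.55, 2.19 ± 0.42 and 2.88 ± 0.48 in WT. Bub1b, the checkpoint protein BubR1, the centromere motor Cenpe and the kinetochore protein Cenpf rose by 2.23 ± 0.32, 2.0 ± 0.37 and 2.92 ± 0.43 in EZH2nHom and by 1.82 ± 0.31, 1.97 ± 0.36 and 2.65 ± 0.42 in WT.

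Of the 12 spindle and cytokinesis genes, 11 rose in each genotype, with median log2 changes of 2.56 in EZH2nHom and 2.54 in WT. Nusap1, which bundles spindle microtubules, stood at 13.5, 5.76, 9.4 and 20.4 CPM in EZH2nHom kainate, against 1.81, 1.12, 1.99, 1.28 and 1.31 CPM in EZH2nHom saline libraries. The WT levels of Nusap1 were 4.32, 4.9, 10.6, 12.8 and 4.31 CPM after kainate, against 1.06, 1.16, 1.2, 1.29 and 0.865 CPM after saline. No libraries overlapped, and it rose by 3.02 ± 0.37 (adjusted p = 1.87e-05) in EZH2nHom and 2.71 ± 0.36 (adjusted p = 0.000124) in WT. Racgap1, which forms the centralspindlin complex with the kinesin Kif23, had 19.8, 19.2, 19.2 and 30.8 CPM in EZH2nHom kainate, against 5.8, 5.51, 6.9, 4.2 and 7.04 CPM in EZH2nHom saline libraries. For WT, Racgap1 was at 10.5, 12.5, 20.5, 27.5 and 11.8 CPM after kainate, against 4.8, 5.44, 5.3, 4.93 and 5.39 CPM after saline. It rose by 1.92 ± 0.24 in EZH2nHom (adjusted p = 2.54e-05) and 1.67 ± 0.23 in WT (adjusted p = 0.000165), with a higher level after saline than most spindle genes. Kif23 itself rose by 2.91 ± 0.41 in EZH2nHom and 2.72 ± 0.40 in WT, Prc1, which crosslinks the midzone, by 3.37 ± 0.46 in EZH2nHom and 3.29 ± 0.45 in WT, and Hmmr, a spindle-associated hyaluronan receptor, by 3.45 ± 0.52 in EZH2nHom and 3.36 ± 0.52 in WT. The mitotic kinesins Kif11, Kif15, Kif4 and Kif20a rose by 1.91 ± 0.35, 2.21 ± 0.43, 2.54 ± 0.36 and 3.14 ± 0.46 in EZH2nHom and by 1.77 ± 0.34, 2.42 ± 0.42, 2.52 ± 0.35 and 2.97 ± 0.45 in WT. Tpx2, an activator of Aurora A, and Ect2, which acts in cytokinesis, rose by 2.57 ± 0.41 and 2.31 ± 0.39 in EZH2nHom and by 2.57 ± 0.40 and 2.30 ± 0.38 in WT.

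Anln, the actin-binding scaffold of the cleavage furrow, had the smallest change of the 50 genes in each genotype. It stood at 30.5, 63, 39.8 and 51.1 CPM in EZH2nHom kainate, against 40.1, 40.6, 44.6, 43.3 and 33.9 CPM in EZH2nHom saline libraries. Anln in WT was at 32.4, 56.6, 49.2, 49.9 and 33.2 CPM after kainate, against 47.6, 52.3, 45.6, 43.1 and 33.2 CPM after saline. The groups overlapped, and the log2 changes of 0.19 ± 0.19 in EZH2nHom (adjusted p = 0.511) and -0.00 ± 0.18 in WT (adjusted p = 0.993) did not pass. Anln is also known in rodents from myelinating oligodendrocytes, where it takes part in myelin structure outside the cell cycle.

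The 50 genes varied together among libraries of a group. EZH2nHom kainate replicate 4 was the highest of its group for 49 genes and EZH2nHom kainate replicate 2 the lowest for 43, and WT kainate replicate 4 was the highest for 49 and WT kainate replicate 1 the lowest for 44. Without Anln, the summed level was 4.34, 2.13, 3.18 and 6.23 times the saline mean in EZH2nHom kainate replicates 1 to 4. In WT kainate replicates 1 to 5 it was 1.88, 2.55, 4.64, 6.27 and 2.36 times the saline mean. Even so, 47 to 50 of the genes lay above every saline library of the same genotype in each of the 9 kainate libraries. The share of all genes was not counted for single libraries, and the shares given next are for whole groups. Kainate and saline libraries did not overlap for 46 genes in EZH2nHom and 47 in WT, against 9.93% and 9.79% of all genes tested.

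**Figure D3:**
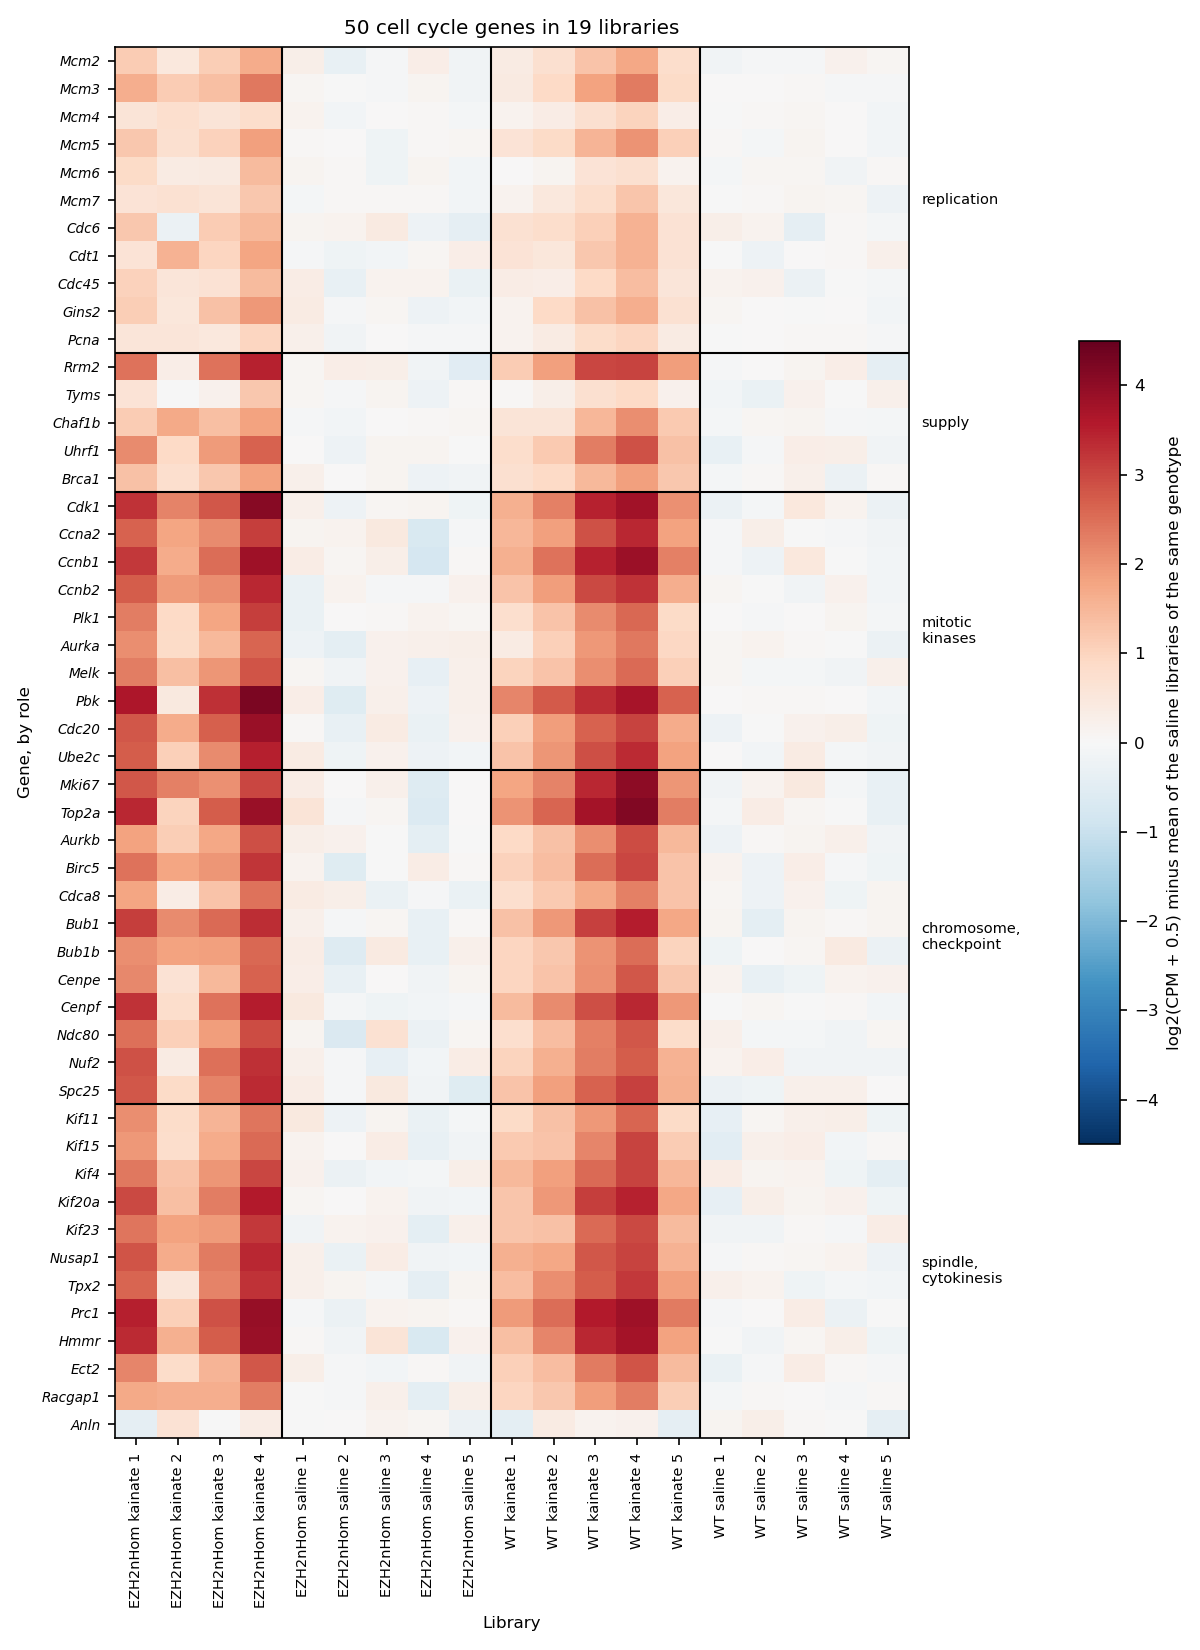
Log2(CPM + 0.5) of the 50 genes (rows, by role) in the 19 libraries (columns), less the mean of the saline libraries of the same genotype, with red above and blue below it. Kainate columns are red for nearly all rows, darkest in EZH2nHom kainate replicate 4 and WT kainate replicate 4, while the Anln row stays pale.

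EZH2nHom kainate replicate 2 differed from its group mates unevenly across the roles. Its levels were a median of 65.4% of the mean of the other 3 libraries for the replication genes, 34.5% for the mitotic kinases and cyclins, 32.4% for the chromosome genes and 38.0% for the spindle genes. Mki67 was at 75.7% and Cdt1 at 137% of that mean, while Pbk was at 7.9%, Rrm2 at 14%, Nuf2 at 14.9% and Top2a at 18.5%. The ratio of Top2a to Mki67 was 0.298 in this library, against 1.1 to 1.36 in its group mates and 0.65 to 0.879 in EZH2nHom saline libraries. In WT libraries the same ratio was 0.881 to 1.03 after kainate, against 0.601 to 0.883 after saline. Leaving this library out moved the median log2 change in EZH2nHom to 1.38 for replication genes and 3.58 for mitotic kinases and cyclins.

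Markers of other cell types were read beside these genes, since in whole tissue fewer cells of a type and less RNA per cell cannot be told apart. Of 10 microglial markers, among them Csf1r, Aif1 and Trem2, 9 rose in EZH2nHom and 10 in WT. Their summed level was 986 to 2134 CPM in EZH2nHom kainate, against 331 to 379 CPM in EZH2nHom saline libraries. WT libraries had 725 to 2189 CPM after kainate, against 392 to 444 CPM after saline. In EZH2nHom kainate replicates 1 to 4 this sum was 3.94, 2.71, 3.23 and 5.86 times the saline mean. In WT kainate replicates 1 to 5 it was 1.75, 2.23, 3.75, 5.28 and 2.09 times the saline mean, so that in each genotype the libraries stood in the same order as by the summed cell cycle genes. The astrocyte sums described next stood in that order in each genotype too, those of oligodendrocyte precursors and leukocytes did so in WT, and the neuron sums stood in the reverse order in each genotype. The part of these cells in the result was not tested.

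In the other lists fewer genes rose than in the microglial list, and most of these lists moved less. Their counts, like those of the microglial list, stand beside the shares of all genes. These were 14.3% higher and 11.8% lower in EZH2nHom, and 9.47% and 2.57% in WT. Of 8 astrocyte markers 5 rose in EZH2nHom and 4 in WT, led by Gfap, and their sum was 1.29 to 2.24 times the saline mean in EZH2nHom kainate and 1.41 to 1.78 times in WT kainate libraries. Of 7 markers of oligodendrocyte precursors, Vcan rose in EZH2nHom, and Vcan and Gpr17 rose and Pdgfra fell in WT, and the sums were 0.928 to 1.79 times the saline mean in EZH2nHom kainate and 1.36 to 2.39 times in WT kainate libraries. Among 9 markers of neural progenitors and neuroblasts, Sox4 rose in each genotype, while Dcx and Neurod1 fell in EZH2nHom, and the sums stayed at 0.826 to 1.17 times the saline mean in EZH2nHom kainate and 0.914 to 1.27 times in WT kainate libraries. Of 12 leukocyte markers 6 had enough reads to be tested, of which 3 rose in EZH2nHom and 2 in WT. Their summed level was 5.06 to 23.1 CPM in EZH2nHom kainate, against 1.16 to 4.84 CPM in EZH2nHom saline libraries. In WT it was 2.66 to 24.4 CPM after kainate, against 1.8 to 4.61 CPM after saline. This sum was 2.33 to 10.6 times the saline mean in EZH2nHom kainate and 1.04 to 9.58 times in WT kainate libraries. The highest of these ratios were above those of the microglial sum, 5.86 and 5.28. The T cell genes Cd3e and Cd3g had 3 and 12 reads over the EZH2nHom kainate libraries and 5 and 17 over the WT kainate libraries. Of 8 endothelial and pericyte markers 0 passed in either genotype by edgeR or DESeq2, with 0 in EZH2nHom and 2 in WT at an unadjusted p under 0.05. All 5 red cell markers rose in WT, while in EZH2nHom 0 passed by edgeR or DESeq2 or at an unadjusted p under 0.05. Of 9 hippocampal neuron markers, 5 fell in EZH2nHom and 2 in WT, and their sums were 0.576 to 0.839 times the saline mean in EZH2nHom kainate and 0.648 to 1.07 times in WT kainate libraries.

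**Figure D4:**
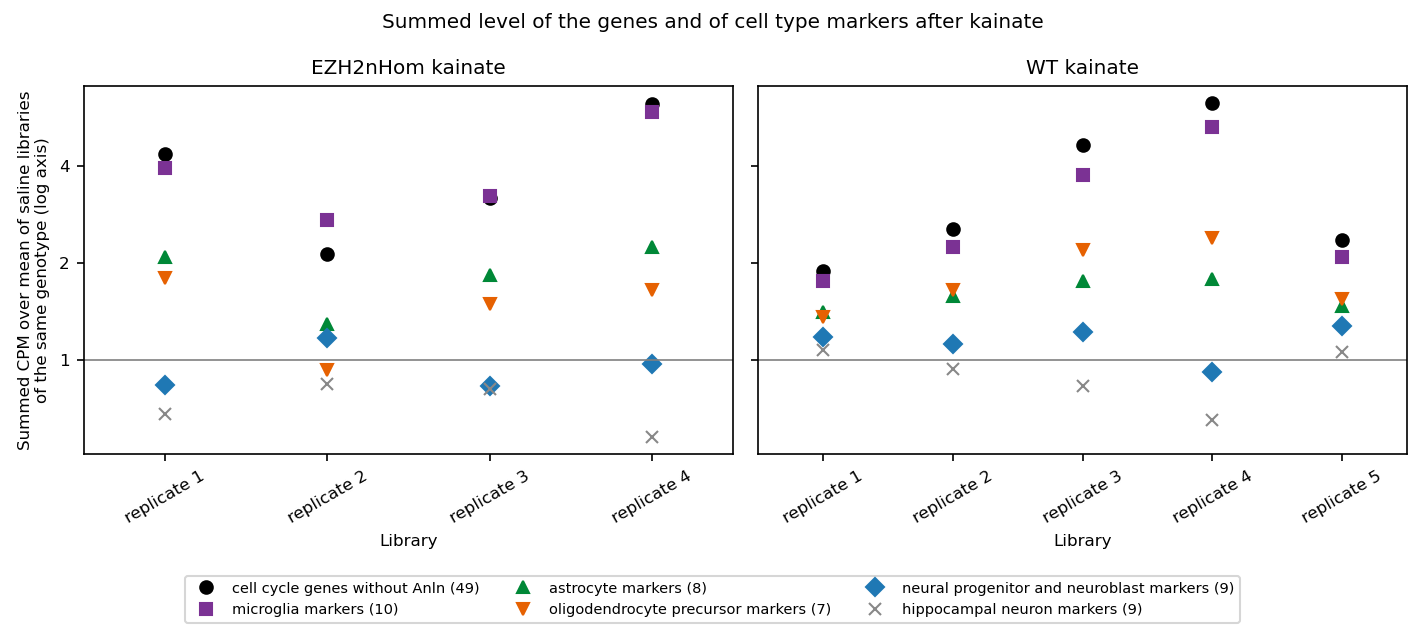
Summed CPM of the 49 genes without Anln and of 5 marker lists in each kainate library, divided by the mean of the saline libraries of the same genotype, on a log axis, with EZH2nHom on the left and WT on the right. The black points of the cell cycle genes and the purple squares of the microglial markers run from about 2 to 6 together, with the largest gap in EZH2nHom kainate replicate 2, and the blue diamonds of progenitor markers stay near 1.

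Other genes of the cell cycle were read from 5 lists, of which 73 genes could be tested. After kainate, 28 rose and 2 fell in EZH2nHom, and 23 rose and 0 fell in WT. Among all genes tested, 14.3% passed as higher and 11.8% as lower in EZH2nHom, and 9.47% and 2.57% in WT. The counts per list that follow stand beside these shares. Blocking on replicate number gave 25 higher and 4 lower in EZH2nHom and 20 higher and 0 lower in WT. Without WT kainate replicates 3 and 4, the WT calls of Ccnd1, Ccne2, Cdk2, Mybl2, Gmnn, Rfc4, Cdc25c and Mad2l1 described next were lost, with Cdk2 at 0.59 (adjusted p = 0.105) and Cdc25c at 1.09 (adjusted p = 0.13). Of 8 G1 cyclins and kinases, 2 rose in EZH2nHom and 4 in WT. Cdk2, the kinase of the G1 to S transition, rose by 1.34 ± 0.23 (adjusted p = 0.00029) in EZH2nHom and 0.98 ± 0.22 (adjusted p = 0.00507) in WT. Ccnd1, a D-type cyclin that responds to growth signals, rose by 0.75 ± 0.23 in EZH2nHom and 0.76 ± 0.22 in WT. Its call in EZH2nHom was lost without EZH2nHom kainate replicate 4 or EZH2nHom saline replicate 1 or 2, and in WT without WT kainate replicate 3 or 4 or any 1 of the WT saline libraries. Ccne2, a partner of Cdk2, changed by 0.20 ± 0.15 in EZH2nHom, which did not pass (adjusted p = 0.368), and rose by 0.50 ± 0.14 in WT (adjusted p = 0.0298), a call lost on leaving out any of 6 WT libraries.

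Of 19 tested genes of the E2F family, pocket proteins and MuvB, 9 rose in EZH2nHom and 6 in WT. Foxm1, the forkhead factor of mitotic genes, stood at 6.81, 3.89, 3.76 and 9.52 CPM in EZH2nHom kainate, against 1.22, 0.704, 0.859, 1 and 1.16 CPM in EZH2nHom saline libraries. Foxm1 in WT was at 2.75, 3.87, 5.95, 9.89 and 3.57 CPM after kainate, against 1.45, 1.04, 1.62, 1.27 and 1.24 CPM after saline. It rose by 2.59 ± 0.34 in EZH2nHom (adjusted p = 3.87e-05) and 1.97 ± 0.33 in WT (adjusted p = 0.000521), without overlap. Mybl2, which encodes B-Myb, rose by 1.28 ± 0.24 in EZH2nHom and 1.05 ± 0.22 in WT, and E2f8, an E2F that represses, by 2.31 ± 0.38 in EZH2nHom and 2.83 ± 0.39 in WT. E2f1, the activating E2F of S phase genes, had log2 changes of 0.41 ± 0.19 in EZH2nHom (adjusted p = 0.113) and 0.49 ± 0.18 in WT (adjusted p = 0.0828), which did not pass. Without EZH2nHom kainate replicate 2, E2f1 passed in each genotype (adjusted p = 0.0401 in EZH2nHom and 0.0451 in WT).

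Of 27 genes of origins and polymerases, 10 rose in EZH2nHom and 7 in WT. Mcm10, which joins the helicase at firing, rose by 2.46 ± 0.37 in EZH2nHom and 1.98 ± 0.35 in WT, Pole, the leading-strand polymerase, by 1.39 ± 0.26 in EZH2nHom and 1.33 ± 0.25 in WT, and Gmnn (geminin), the inhibitor of Cdt1, by 1.70 ± 0.30 in EZH2nHom and 1.07 ± 0.28 in WT. Rfc4, a subunit of the clamp loader, rose by 0.76 ± 0.19 in EZH2nHom and 0.72 ± 0.19 in WT. The WT call of Gmnn was lost without WT saline replicate 2 or WT kainate replicate 3 or 4, and that of Rfc4 without WT kainate replicate 4. Of 12 checkpoint and entry genes, 4 rose in each genotype. Ttk, the checkpoint kinase Mps1, rose by 2.26 ± 0.44 in EZH2nHom and 2.37 ± 0.44 in WT, Cdc25c, the phosphatase that activates Cdk1, by 1.77 ± 0.40 in EZH2nHom and 1.80 ± 0.40 in WT, and Mad2l1, of the spindle checkpoint, by 0.57 ± 0.13 in EZH2nHom and 0.51 ± 0.13 in WT. The Mad2l1 call in WT was lost without WT kainate replicate 4 (adjusted p = 0.0503).

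Of 7 tested CDK inhibitors, 3 rose in EZH2nHom and 2 in WT. Cdkn2c (p18) rose by 1.78 ± 0.27 in EZH2nHom and 1.63 ± 0.26 in WT, and Cdkn3, a phosphatase of CDKs that is itself expressed in dividing cells, by 3.25 ± 0.54 in EZH2nHom and 2.98 ± 0.56 in WT. Cdkn1a (p21), a target of p53 that stops the cycle, stood at 5.75, 42.3, 8.82 and 9.99 CPM in EZH2nHom kainate, against 2.11, 1.37, 2.34, 2.4 and 2.35 CPM in EZH2nHom saline libraries. Cdkn1a in WT was at 2.91, 3.63, 7.22, 9.34 and 2.34 CPM after kainate, against 1.29, 1.56, 2.37, 2.24 and 1.76 CPM after saline. The high value is that of EZH2nHom kainate replicate 2, the library with low mitotic genes. The log2 change in EZH2nHom was 2.97 ± 0.50 (adjusted p = 0.000302) with this library and 1.94 (adjusted p = 0.000649) without it. In WT the change of 1.45 ± 0.48 did not pass with all libraries in the fit (adjusted p = 0.054) and passed once EZH2nHom kainate replicate 2 was left out (adjusted p = 0.00527), and likewise without EZH2nHom kainate replicate 1 or WT kainate replicate 1 or 5.

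**Figure D5:**
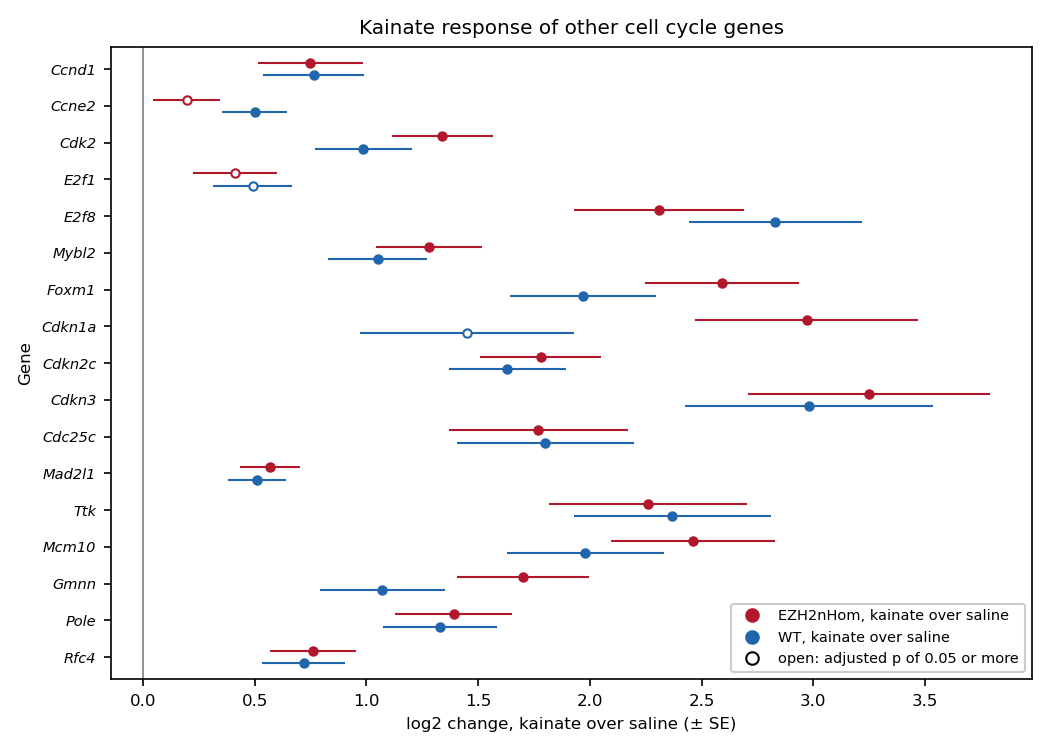
Log2 change of kainate over saline (± SE) for 17 other cell cycle genes, with EZH2nHom in red above WT in blue and open points for adjusted p of 0.05 or more. Foxm1, E2f8, Cdkn3, Ttk and Mcm10 lie at 1.97 or above in each genotype, E2f1 lies at 0.41 and 0.49 with open points, and Cdkn1a lies at 2.97 in EZH2nHom and 1.45 in WT.

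Between the genotypes, 0 of the 50 genes passed after saline or after kainate, by edgeR, while 8.33% and 4.56% of all genes tested passed as higher in EZH2nHom and 5.16% and 3.04% as lower. At an unadjusted p under 0.05 there were 1 gene after saline and 3 after kainate, against 27.4% and 23.9% of all genes, and by DESeq2 there were 0 in each. The median SE of the 50 genes was 0.388 after saline and 0.375 after kainate, against 0.172 and 0.182 over all genes. A difference of a given size therefore passed less readily among the 50, and the lack of calls does not show equal levels. After saline the median log2 difference was 0.18, with 43 of 50 genes higher in EZH2nHom, against 52.1% of all genes. That direction turned with a covariate, to a median of -0.02 with Xist at 1 CPM or more and -0.49 with the share of structural RNA, and was 0.05 with Xist at 10 CPM or more. After kainate it was 0.41, with 50 of 50 genes higher in EZH2nHom, against 50.4% of all genes, over libraries that vary together as described. Mki67 averaged 10.9 ± 2.54 CPM in EZH2nHom saline and 7.09 ± 1.62 CPM in WT saline libraries (SD, n = 5 each), a log2 difference of 0.63 ± 0.37 that did not pass (adjusted p = 0.294). Chaf1b had the largest difference after saline, 0.72 ± 0.34 (adjusted p = 0.177), and Hmmr after kainate, 0.75 ± 0.47 (adjusted p = 0.356). Without WT kainate replicate 4, which had the highest levels of its group, 6 genes passed as higher in EZH2nHom after kainate, namely Mcm4, Chaf1b, Racgap1, Mcm6, Mcm7 and Kif23, with log2 differences of 0.43 to 1.11, against 6.61% of all genes higher in that fit. The share of the 50 was there above that of all genes. In a fit to the saline libraries alone 4 passed as higher in EZH2nHom, namely Chaf1b, Tpx2, Mki67 and Cenpe, at 0.49 to 0.70. Among all genes 16.2% were higher in that fit, so that the share of the 50 was below that of all genes. A fit to the kainate libraries alone gave far fewer calls, with 4 of all 18504 genes higher in EZH2nHom and 0 lower.

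The difference between the kainate responses, EZH2nHom minus WT, passed for 0 of the 50 genes by edgeR and for 0 at an unadjusted p under 0.05, against 8.76% of all genes at that unadjusted p. No gene of the whole table passed by edgeR (0.0%), and 12 did by DESeq2, none of them among the 50. The median difference over the 50 genes was 0.14, with 42 positive, against 47.9% of all genes. It ran from -0.42 for Mki67 to 1.05 for Cdc20. The median SE of these differences was 0.566 on the log2 scale, against 0.25 over all genes. Among the 73 other cell cycle genes tested, 7 passed as higher and 0 as lower in EZH2nHom after saline, and 6 as higher and 1 as lower after kainate, beside the 8.33% and 4.56% of all genes given above as higher. Ccne2 was higher in EZH2nHom by 0.82 ± 0.14 after saline (adjusted p = 0.000892) and by 0.52 ± 0.15 after kainate (adjusted p = 0.0432), the second lost without EZH2nHom kainate replicate 2 (adjusted p = 0.097) and without any 1 of 9 other libraries. Cdkn1a was higher after kainate by 1.72 ± 0.48 (adjusted p = 0.0352), and by 0.69 without EZH2nHom kainate replicate 2, which did not pass (adjusted p = 0.263). Cdkn1a also lost the call without WT kainate replicate 1, 2 or 5. The calls of Ccne2 and Cdkn1a after kainate were both lost in the fit to the kainate libraries alone.

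Sample codes in the labels start with a number whose meaning is not given, and no starting number occurs in both genotypes, so that it cannot be told apart from genotype. In WT, 6 libraries carry numbers found in both arms. Among those of 1 number, WT kainate replicates 2, 3 and 4 all lay above WT saline replicate 2 for 49 of the 50 genes, all but Anln, against 33.2% of all genes tested. For the other, WT kainate replicate 1 lay above WT saline replicate 4 for the same 49 genes, against 49.1% of all genes. A fit to these 6 libraries with the number as a block gave a median log2 change of 2.17 with 49 positive, and 0 of the 50 genes, like 0 of all genes, passed (adjusted p = 0.406 to 0.565, with 38 of the 50 at an unadjusted p under 0.05). The share of reads in small structural RNAs was 0.195% to 0.775% in EZH2nHom kainate and 0.217% to 0.763% in EZH2nHom saline libraries, and 0.0708% to 0.218% in WT kainate and 0.0612% to 0.0901% in WT saline libraries. With that share as a covariate, 49 of the 50 genes passed as higher after kainate in EZH2nHom and 35 in WT. Among all 19234 genes, 2882 and 618 passed as higher in these fits, against 1821 in WT without the covariate. The part of this share in the result was not tested.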

How the data were processed

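RNA-seq counts per gene were measured in 19 libraries from right hippocampus by total RNA sequencing after depletion of cytoplasmic and mitochondrial rRNA, per the labels' protocols. The authors deposited raw read counts per gene, and a normalised signal (counts divided by a size factor per library) with gene symbols, which served for symbols only. DESeq2, DESeq and the build mm39 are named in the submitters' processing notes, and the aligner, counter, annotation and strand setting are not given in the sources used here. Groups and replicate numbers came from the titles. For the EZH2nHom kainate libraries, the numbers in the sample descriptions are shifted from those in the titles. The replicate block and the correlations of same-numbered libraries used the title numbers. In EZH2nHom they therefore do not test the numbering of the descriptions. The 50 genes, the 5 pathway lists and the 8 marker lists were chosen with earlier results of these data known.

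The tests ran in edgeR 4.0.16 under R 4.3.3 (filterByExpr, TMM, robust quasi-likelihood fit of the 4 group means over all 19 libraries, 2-sided, Benjamini-Hochberg over 19234 genes), which was tested on simulated data. Tables and figures used Python 3.11.15, pandas 2.3.3 and matplotlib 3.10.9. Alternatives were DESeq2 1.42.0, its size factors, other filters, fits to the 2 groups compared, a replicate block, covariates for Xist and for structural RNA, shared code numbers, a threshold of 0.01, and leaving out each library. A covariate for Xist at 10 CPM and fits without WT kainate replicates 3 and 4 or EZH2nHom kainate replicates 2 and 4 were added after seeing the data.

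Values per library are printed for Mki67, Top2a, Pcna, the 2 genes of each role with the smallest p in WT, those that failed a kainate test and the 2 with the largest difference of responses. The pathway genes named are E2f1, Foxm1, Mybl2, Ccnd1, Cdkn1a, Gmnn and up to 3 per list with the smallest p in WT. Other genes named from the marker and pathway lists were chosen after their values were seen.

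Deviations of same-numbered kainate and saline libraries, by title number, had correlations of 0.138, 0.474, 0.288, 0.199 and 0.301 in WT. In EZH2nHom these were -0.0403, 0.109, 0.125 and 0.134. The same-numbered saline library was not the best match for WT replicate 3 or for EZH2nHom replicates 1 and 3. In WT the same-numbered libraries shared a starting code number only for replicate 2. Whether the numbers pair samples is not given in the labels, and these correlations do not settle it. No libraries were identical. Shared sequence was counted as 32-base words found in other GENCODE vM21 gene models, with over 15% for Gins2, Mcm7, Ccnb1, Kif20a, Cdc20, Ube2c, Uhrf1, Pcna, Plk1 and Kif4. Without a stated strand setting, reads of overlapping antisense genes cannot be told apart. The lowest count of any of the 50 genes was 3 reads, for Ndc80 in EZH2nHom saline replicate 2. Counts are not unique molecules.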

Additional observations from a re-analysis of the deposited data

Results flagged for a closer look

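Among those of the 50 genes printed by library, 4 values lay far from the other libraries of their group. The measure was the ratio of the gap to the range (Dixon, 95% critical values of 0.829 for 4 and 0.71 for 5 libraries). Pathway genes were outside this screen, among them Cdkn1a, at 42.3 CPM in EZH2nHom kainate replicate 2 against 5.75 to 9.99 CPM in its group mates. Pcna at 72.5 CPM and Racgap1 at 30.8 CPM were highest in EZH2nHom kainate replicate 4, the library with the highest levels of nearly all 50 genes in its group. Mcm5 at 4.62 CPM was lowest in EZH2nHom saline replicate 3, and Bub1 at 0.214 CPM was lowest in WT saline replicate 2. Over all 50 genes and 4 groups, 7 of 200 tests passed the critical value, and chance flags about 1 in 20 groups.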

How the results depend on the processing

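Leaving out 1 library at a time gave 47 to 49 of the 50 genes higher after kainate in EZH2nHom and 45 to 47 in WT, and Cdc45 and Cdc6 were the genes lost in WT. Among all genes, 2211 to 3206 were higher in EZH2nHom and 1138 to 2476 in WT in these fits. In WT, 35 passed with the structural RNA covariate and 0 in the 6 libraries of shared code numbers, against 618 and 0 of all genes. Between the genotypes after saline, 4 genes passed as higher in EZH2nHom in the fit to the 2 groups compared, and the median log2 difference was -0.02 with the Xist covariate and -0.49 with the structural RNA covariate, against 0.18. After kainate, leaving out 1 library gave 0 to 6 genes, the highest without WT kainate replicate 4. The log2 change of Anln in WT was 0.00174 without a filter, 0.00392 in the fit to the 2 groups and -0.125 to 0.0835 with 1 library left out. In EZH2nHom it was -0.204 without kainate replicates 2 and 4, and -0.00272 to 0.371 with 1 library left out. After saline, with the structural RNA covariate the genotype difference was -0.00251 for Chaf1b and -0.186 for Nusap1, and with the Xist covariate that of Cdkn1a was -0.378 (-0.178 with Xist at 10 CPM). The causes were not tested. With the replicate block, beside Cdc6 and Cdc45, the Ccnd1 call in WT and the Cdkn1a call between genotypes after kainate were lost among the genes named. Over whole lists, the block gave 7 in place of 9 E2F and MuvB genes, 8 in place of 10 origin and polymerase genes and 4 in place of 3 CDK inhibitors higher in EZH2nHom. In WT it gave 5 in place of 7 origin and polymerase genes and 3 in place of 4 G1 genes. Microglial markers were 7 in place of 9 in EZH2nHom and 8 in place of 10 in WT. Counts near the floor of 3 reads limit the rarest genes after saline.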
